A study of Mus musculus with 12 samples.

Results

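Livers in which Tsc1 had been deleted in hepatocytes (Tsc1Δhep, libraries 1 to 3) were compared with livers of floxed mice that carried no Cre recombinase (p62F/F, libraries 1 to 3), which makes 6 of the 12 libraries of the study. The Tsc1Δhep mice had both Tsc1 alleles floxed and the Alb-Cre transgene, in which the albumin promoter drives Cre in hepatocytes, and their Sqstm1 gene was intact. The p62F/F mice had both Sqstm1 alleles floxed, lacked Cre and served the study as wild type, so both of their genes were intact. All mice were labelled as being on the C57BL/6 background, the tissue was frozen dissected liver, and no treatment is named for any library. The study used low-fat and high-fat diets, but the diet and age behind each library, and whether a piece held tumour, are not stated in the labels. The other 6 libraries came from mice with hepatocyte deletion of Sqstm1 (p62Δhep) or of Tsc1 and Sqstm1 (Tsc1/p62Δhep), both with Alb-Cre. No group with floxed Tsc1 and no Cre is among the 12 libraries. The Tsc1Δhep and p62F/F counts stand in separate deposited tables, so the table, with whatever sequencing run it came from, and the Cre transgene both went with genotype, and their parts in any difference below cannot be told apart from that of Tsc1.

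TSC1 joins TSC2 in a complex that restrains mTORC1, a kinase that couples amino acids and growth factors to protein synthesis, lipid synthesis and autophagy. In cells without the complex mTORC1 stays active, its feedback dampens insulin signalling, and transcription factors such as ATF4, which drives amino acid supply, can rise. TFEB and its relatives, which drive lysosome genes, are restrained by mTORC1 through the Rag GTPases. p62, the product of Sqstm1, is an autophagy receptor and can sequester KEAP1, which otherwise has the antioxidant factor NRF2 degraded. Mice with Tsc1 deleted in the liver are known to develop liver damage and hepatocellular carcinoma.

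Library totals were 17492176 to 33377247 counts, and levels are given as CPM, read counts relative to the scaled library size, on 1 scale for all 12 libraries. The first principal component of the 6 libraries held 68.1% of the variance and separated the groups. Genes in the shortest quintile of transcript length stood at a median log2 difference from the p62F/F mean of 0.44, 0.25 and -0.25 in Tsc1Δhep 1, 2 and 3, and genes in the longest quintile at -0.70, -0.45 and 0.02, whereas in the p62F/F libraries these medians lay between -0.05 and 0.03. The ribosomal RNA precursor Rn45s held 2.30% to 2.68% of the counts in p62F/F and 0.0751% to 0.158% in Tsc1Δhep. Its share was 1.91% to 3.50% in p62Δhep and 0.0872% to 1.21% in Tsc1/p62Δhep. Of 9 tested genes for ribosomal RNA and RNAs without a poly(A) tail, 4 were lower in Tsc1Δhep, all over 4-fold (edgeR, adjusted p below 0.05). In Tsc1/p62Δhep against p62Δhep 4 of 9 were lower as well. The shares lower over all genes were 10% and 20.1%. A part of library preparation was not tested. Nothing in the labels tells whether each library is its own animal, and p-values therefore measure the spread between these libraries, which may be technical.

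**Figure D1:**
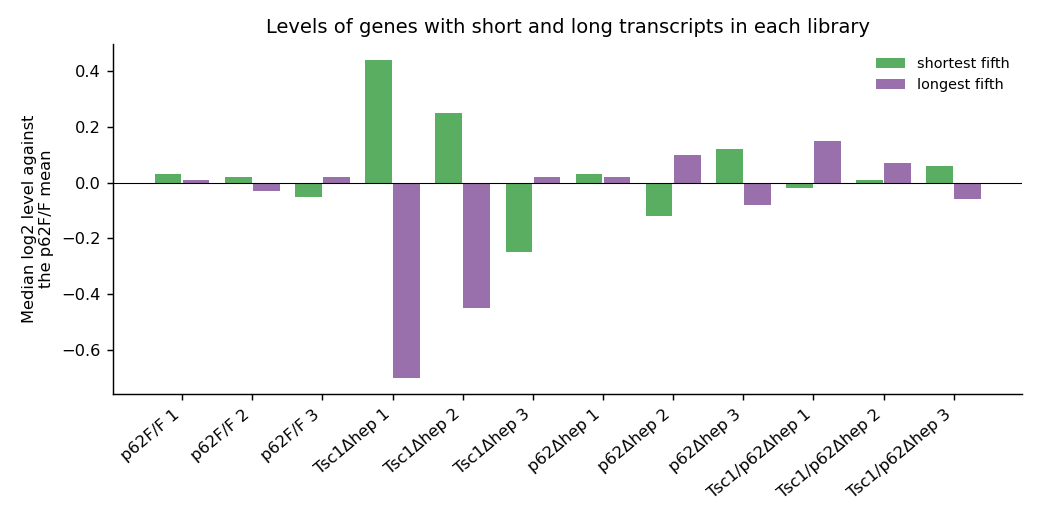
Median log2 level of genes in the shortest (green) and longest (purple) quintile of transcript length in each of the 12 libraries, against the mean of the 3 p62F/F libraries, for genes above a log2 level of 3 there. Tsc1Δhep 1 (0.44 and -0.70) and Tsc1Δhep 2 (0.25 and -0.45) stood apart, and Tsc1Δhep 3 had medians of -0.25 and 0.02.

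The deleted gene was read first. Tsc1 was at 29.1, 32.6 and 35.6 CPM in p62F/F 1 to 3 and at 5.56, 5.27 and 10.7 CPM in Tsc1Δhep 1 to 3. All Tsc1Δhep libraries were below all controls, and Tsc1Δhep 3 kept the most Tsc1 RNA. The log2 fold change was -2.18 ± 0.32 (SE, n = 3 libraries per group) with an adjusted p of 0.00584 (edgeR, quasi-likelihood test, Benjamini-Hochberg adjustment), and every adjusted p below is from this test. Its partner Tsc2 was at 35.4, 37.9 and 34.2 CPM in p62F/F and at 30.4, 36.8 and 71.5 CPM in Tsc1Δhep, so the groups overlapped (log2 0.37, adjusted p = 0.432). Sqstm1, intact in both groups, was at 327, 358 and 356 CPM in p62F/F and at 1170, 771 and 976 CPM in Tsc1Δhep. It rose by 1.49 ± 0.25 on the log2 scale (adjusted p = 0.00937), a call that was lost without p62F/F 1 or without p62F/F 3. Alb, the main secreted protein of hepatocytes and a check of the tissue, reached 13900 to 57400 CPM in all 6 libraries, and its groups overlapped (log2 -0.91, adjusted p = 0.262).

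Of 13066 genes tested, 1622 were higher in Tsc1Δhep (12.4%) and 1313 lower (10%) at an adjusted p below 0.05, and the median log2 fold change over all genes was 0.03. The counts without Tsc1Δhep 1, 2 or 3 were 1562, 781 and 2930 higher and 1312, 484 and 2679 lower. Without p62F/F 1, 2 or 3 they were 505, 584 and 484 higher and 405, 510 and 338 lower. Because table and Cre went with genotype, large changes were set apart: past the test, over 4-fold and with no overlap between the groups. There were 671 large rises (5.14% of genes tested) and 405 large falls (3.1%). Leaving out p62F/F 1, 2 or 3 gave 378, 417 and 388 large rises and 266, 278 and 223 large falls, and without Tsc1Δhep 2 there were 522 and 263, and without Tsc1Δhep 3 902 and 691. After the trend of each library with transcript length and GC content was removed, limma called 620 of 666 of the large rises (93.1%) and 382 of 401 of the large falls (95.3%) in the same direction. Over all genes of that fit, on log2(CPM + 1), 350 rises and 235 falls met all 3 conditions, with overlap read on uncorrected CPM. The same limma fit without the trend removal gave 360 and 241.

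**Figure D2:**
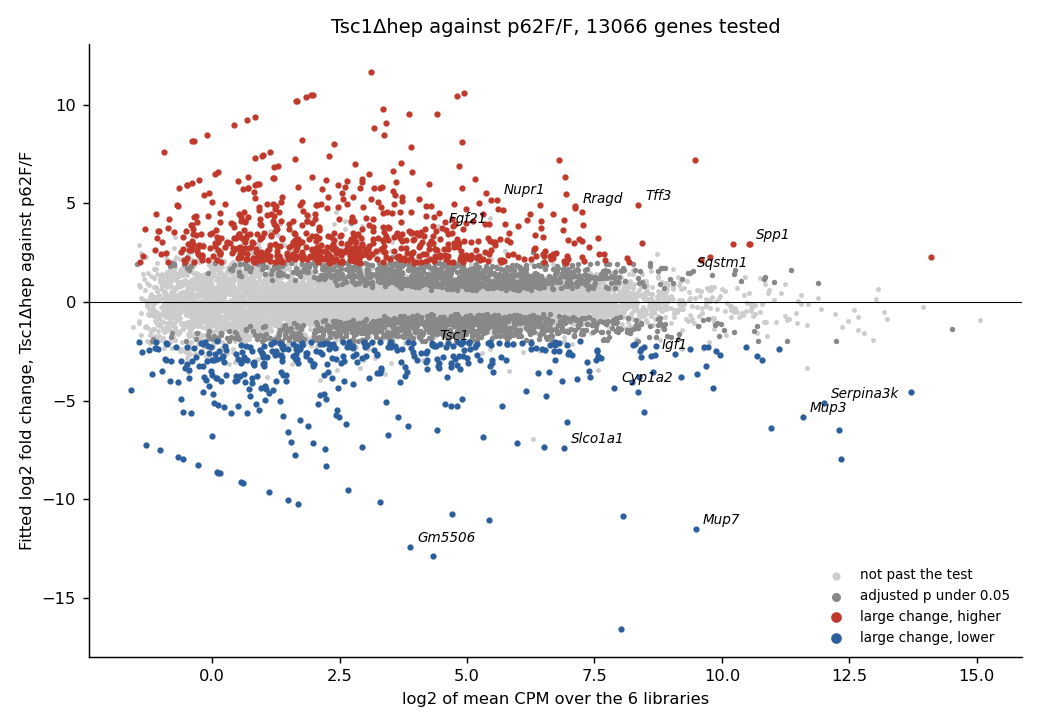
Fitted log2 fold change of Tsc1Δhep against p62F/F (vertical axis) by log2 mean CPM over the 6 libraries (horizontal axis), 1 point per gene tested. Red and blue points are the 671 large rises and 405 large falls, dark grey points passed the test only, and light grey points did not pass it.

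The genes with the largest fitted rises were close to 0 in all controls. Timp4, an inhibitor of matrix metalloproteinases, was at 0.0564, 0 and 0.0552 CPM in p62F/F and at 123, 49.6 and 12.8 CPM in Tsc1Δhep. With 2 counts over the controls its ratio was 1760, and the 95% interval, which covers counting error only, ran from 488 to 14600. Mgst2, a microsomal glutathione transferase, was at 0.113, 0 and 0 CPM in the controls and at 115, 33.4 and 18.9 CPM in Tsc1Δhep, a ratio of 1530 with an interval of 423 to 12600. Both genes were near 0 in p62Δhep and below 0.3 CPM in every Tsc1/p62Δhep library. Wnt16, a secreted WNT ligand, was at 0 in all controls and at 12.2, 5.48 and 5.44 CPM in Tsc1Δhep, which is at least 143-fold higher against a floor of 3 counts over the control group. Sh3bgr was at 0 in the controls and at 8.07, 25.2 and 18.9 CPM in Tsc1Δhep, at least 359-fold higher. Rnase1, a secreted ribonuclease, was at 24.5, 25.3 and 11.4 CPM in Tsc1Δhep against 1 count over the controls. The largest falls included the major urinary proteins, described further on. Dct, a melanin pathway enzyme, was at 8.18, 2.74 and 5.96 CPM in the controls and at 0 in all Tsc1Δhep libraries, at least 151-fold lower.

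Several of the largest falls were also steep in the other comparison that crosses the tables, Tsc1/p62Δhep against p62Δhep, which shares no library with this one. Gm5506, a gene model with an enolase-like sequence, was at 29.9, 28.2 and 30 CPM in p62F/F and at 0 in all Tsc1Δhep libraries, at least 816-fold lower. It was at 0 in Tsc1/p62Δhep as well. Ubb, a ubiquitin gene, was at 117, 124 and 137 CPM in p62F/F against 0.669, 1.22 and 0.731 CPM in Tsc1Δhep (log2 -7.14), and it differed by -6.74 in the other comparison. Sec61g, a translocon subunit, was at 24.3 to 32.1 CPM in p62F/F against 0.137 to 0.502 CPM in Tsc1Δhep (log2 -6.27, and -8.28 in the other comparison). Genes of this kind have near-identical copies elsewhere in the genome, so their values are uncertain, and here table and genotype cannot be told apart. Among all large changes, 53 rises and 88 falls were also called in that comparison with the 2 differences within 1 log2 unit of each other.

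Of 34 tested members of the lysosome and TFEB target list, 17 were higher and 1 lower, with a median log2 of 0.98, and 16 did not pass the test. Of the mTORC1 pathway list, 8 of 34 were higher and 1, Tsc1 itself, was lower. The member with the largest rise was Rragd, a Rag GTPase that recruits mTORC1 to the lysosome and is itself a known target of TFEB and its relatives. Rragd was at 3.61, 7.94 and 18.2 CPM in p62F/F and at 279, 262 and 263 CPM in Tsc1Δhep. The Tsc1Δhep values lay close together and far above every control (log2 4.76 ± 0.59, adjusted p = 0.00361). Lamp1, the main glycoprotein of the lysosomal membrane, was at 694, 651 and 636 CPM in p62F/F and at 1830, 1790 and 1670 CPM in Tsc1Δhep (log2 1.42 ± 0.23, adjusted p = 0.00773, a call lost without p62F/F 3).

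Hydrolases made up most of the other lysosomal rises. Hexa, a subunit of the enzyme that degrades gangliosides, was at 48.5, 66.9 and 61.7 CPM in the controls and at 337, 208 and 214 CPM in Tsc1Δhep (log2 2.10 ± 0.28, adjusted p = 0.00472). Gusb and Ctsz, which encode beta-glucuronidase and cathepsin Z, rose by 1.88 and 1.74 on the log2 scale, and the calls of Hexa, Gusb and Ctsz held without each library in turn. Subunits of the proton pump that acidifies the lysosome, Atp6v1a and Atp6v1b2, rose by 1.26 and 1.27. Among regulators, Fnip1 (1.06), Rragc (1.29), Sesn1 (1.63) and Sesn2 (1.46), which tune mTORC1 to nutrients, were higher, and Mitf, a relative of TFEB, was lower at -1.09. Each of these 7 calls was lost in at least 1 fit with a library left out. For lysosome genes higher, leaving out Tsc1Δhep 1, 2 or 3 gave 19, 13 and 20, and leaving out p62F/F 1, 2 or 3 gave 10, 9 and 4. The mTORC1 list kept 7, 6 and 13 higher without Tsc1Δhep 1, 2 or 3 and 1, 2 and 1 without p62F/F 1, 2 or 3. Of the core autophagy list, 2 of 31 were higher and 1 lower, below the shares over all genes (12.4% and 10%). Without Tsc1Δhep 3 the counts were 8 and 6, while those over all genes rose from 1622 to 2930 and from 1313 to 2679.

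TFEB is known to bind the letters CACGTG, so windows from 250 bases before to 50 bases after each gene's start were searched for them on both strands in the RefSeq promoter table (GRCm38.p6). They stood in 10 of the 26 lysosome list members with a window (38.5%) and in 8.09% of the 27025 genes with one. The 2 windows shown belong to members that were higher in Tsc1Δhep, and capitals mark the matches. Lamp1 (chr8:13158911-13159210, plus strand) held 4 matches, and Ctsa, cathepsin A (chr2:164833523-164833822, plus strand), held 2. A match is a description of the letters, not evidence of binding.
Lamp1: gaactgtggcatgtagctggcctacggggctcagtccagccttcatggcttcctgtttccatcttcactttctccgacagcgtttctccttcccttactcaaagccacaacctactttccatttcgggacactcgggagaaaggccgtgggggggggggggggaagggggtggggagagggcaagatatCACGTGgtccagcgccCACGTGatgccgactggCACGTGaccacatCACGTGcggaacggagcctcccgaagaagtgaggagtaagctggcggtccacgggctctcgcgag
Ctsa: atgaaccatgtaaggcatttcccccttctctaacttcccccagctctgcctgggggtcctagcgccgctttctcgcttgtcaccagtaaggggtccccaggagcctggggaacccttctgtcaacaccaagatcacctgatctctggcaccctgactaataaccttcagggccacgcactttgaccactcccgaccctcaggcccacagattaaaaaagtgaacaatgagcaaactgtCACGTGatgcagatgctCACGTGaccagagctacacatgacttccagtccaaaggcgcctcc

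ATF4 target genes showed the highest share of rises among the lists. Of 32 tested members, 22 were higher and 1, Cebpb, was lower, with a median log2 of 1.63, and 12 of the rises were large. Nupr1, a stress-induced chromatin protein, was at 1.58, 2.19 and 3.92 CPM in p62F/F and at 174, 72.9 and 33.2 CPM in Tsc1Δhep (log2 5.19 ± 0.71, adjusted p = 0.00493). Even the lowest Tsc1Δhep library was above every control. Psat1, an enzyme of serine synthesis, was at 3.66, 13.7 and 9.27 CPM in the controls and at 323, 177 and 87.7 CPM in Tsc1Δhep (log2 4.46 ± 0.66, adjusted p = 0.00613). For both genes Tsc1Δhep 1 was highest and Tsc1Δhep 3 lowest. Asns, asparagine synthetase, was at 13.9, 3.06 and 11.1 CPM in the controls and at 106, 105 and 100 CPM in Tsc1Δhep (log2 3.48 ± 0.52, adjusted p = 0.00618).

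Cystine import and one-carbon metabolism took part in these rises. Slc7a11, the cystine transporter, was at 16.1, 9.72 and 3.15 CPM in p62F/F and at 257, 139 and 98.4 CPM in Tsc1Δhep (log2 4.10, adjusted p = 0.00732), and its partner Slc3a2 rose by 2.33. The mitochondrial folate enzymes Mthfd2 and Mthfd1l rose by 3.22 and 2.59, and the aminoacyl-tRNA synthetases Sars and Gars by 1.44 and 1.97. Fgf21, a hormone that the stressed or fasted liver releases, was at 2.09, 2.92 and 4.47 CPM in the controls and at 34.8, 47.3 and 44.4 CPM in Tsc1Δhep (log2 3.74 ± 0.33, adjusted p = 0.00154). Apart from that of Cebpb, which was lost without p62F/F 1 and without p62F/F 3, the calls of the genes named so far in this list held without each library in turn. Atf4 itself rose by 1.26 (adjusted p = 0.035) from 86.1 to 125 CPM in the controls to 149 to 333 CPM, a call lost without any 1 of the 3 controls, Tsc1Δhep 1 or Tsc1Δhep 2. The count of members higher was 18, 13 and 25 without Tsc1Δhep 1, 2 or 3 and 11, 13 and 11 without p62F/F 1, 2 or 3.

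The composite element at which ATF4 binds with C/EBP factors was searched in the same windows as TGATGNAA. It stood in 10 of 27 list members with a window (37.0%) and in 4.51% of all 27025 genes. The list is made of known ATF4 targets, some of them named for such elements. The 4 windows of members that rose in Tsc1Δhep shown have the match in capitals; they were chosen because the element stands near the start of genes for a stress protein, a transporter, a hormone and an enzyme. They lie at chr7:126625421-126625720 (Nupr1), chr3:50443564-50443863 (Slc7a11), chr7:45615441-45615740 (Fgf21) and chr6:7693160-7693459 (Asns), all on the minus strand. The match began 110 bases before the start in Nupr1, 139 in Fgf21 and 23 in Asns, and Slc7a11 held 2 matches, the first 66 bases before its start.
Nupr1: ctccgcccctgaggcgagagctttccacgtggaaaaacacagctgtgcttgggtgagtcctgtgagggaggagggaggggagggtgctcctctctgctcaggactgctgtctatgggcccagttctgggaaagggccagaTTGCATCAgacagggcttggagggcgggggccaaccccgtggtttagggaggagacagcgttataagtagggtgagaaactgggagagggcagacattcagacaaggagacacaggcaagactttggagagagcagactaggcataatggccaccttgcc
Slc7a11: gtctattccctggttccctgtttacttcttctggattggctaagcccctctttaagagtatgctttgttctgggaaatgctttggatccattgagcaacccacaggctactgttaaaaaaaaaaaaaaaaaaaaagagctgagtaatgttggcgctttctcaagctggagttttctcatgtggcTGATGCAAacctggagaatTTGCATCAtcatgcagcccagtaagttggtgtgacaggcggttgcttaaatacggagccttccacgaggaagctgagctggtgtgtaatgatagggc
Fgf21: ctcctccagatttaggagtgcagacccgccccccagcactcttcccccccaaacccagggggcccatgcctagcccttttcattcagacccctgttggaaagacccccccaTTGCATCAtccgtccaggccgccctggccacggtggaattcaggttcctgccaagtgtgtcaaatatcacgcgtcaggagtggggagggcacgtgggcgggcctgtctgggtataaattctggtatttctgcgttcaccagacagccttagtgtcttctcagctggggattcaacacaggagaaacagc
Asns: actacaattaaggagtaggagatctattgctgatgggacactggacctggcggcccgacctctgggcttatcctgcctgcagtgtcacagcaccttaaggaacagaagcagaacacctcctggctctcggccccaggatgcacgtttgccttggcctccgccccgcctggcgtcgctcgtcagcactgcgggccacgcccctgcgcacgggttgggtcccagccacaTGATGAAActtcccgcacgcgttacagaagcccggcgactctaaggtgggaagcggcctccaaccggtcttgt

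NRF2 target genes rose in number and none fell. Of 36 tested members 19 were higher, with a median log2 of 1.21, and 9 of the rises were large. Abcc4, an efflux pump of conjugated organic anions, was at 10.3, 5.98 and 3.64 CPM in p62F/F and at 206, 133 and 95.4 CPM in Tsc1Δhep (log2 4.45 ± 0.49, adjusted p = 0.00254). Gsta2, a glutathione transferase with close paralogs, was at 5.86, 20 and 11.9 CPM in the controls and at 341, 217 and 118 CPM in Tsc1Δhep (log2 4.16 ± 0.58, adjusted p = 0.00528). G6pdx, which opens the pentose phosphate pathway, was at 5.81, 8.81 and 7.01 CPM in the controls and at 41.3, 44.6 and 26.3 CPM in Tsc1Δhep (log2 2.38, adjusted p = 0.00337). In each of these genes the groups were well apart.

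Nqo1, a quinone reductase used as an NRF2 readout, was at 11.2, 16.2 and 9 CPM in p62F/F and at 100, 76.8 and 31.0 CPM in Tsc1Δhep (log2 2.52 ± 0.46, adjusted p = 0.011, lost without p62F/F 1 or 3). Srxn1, which repairs peroxiredoxins, rose by 1.61, and Gclc, the catalytic subunit for glutathione synthesis, by 1.58, the latter lost without p62F/F 1 or 3. Nfe2l2, which encodes NRF2, did not pass the test (59.7 to 89.6 CPM in p62F/F, 85.1 to 95.1 CPM in Tsc1Δhep). Keap1 fell by 0.74 on the log2 scale (adjusted p = 0.0341), from 65.8 to 68.4 CPM in the controls to 35 to 47.6 CPM, and that call was lost in 5 of the alternative fits. The NRF2 list had 17, 13 and 22 members higher without Tsc1Δhep 1, 2 or 3 and 8, 14 and 7 without p62F/F 1, 2 or 3. The antioxidant response element, searched as TGACNNNGC, stood in 9 of 32 members with a window (28.1%) and in 14.0% of all genes.

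**Figure D3:**
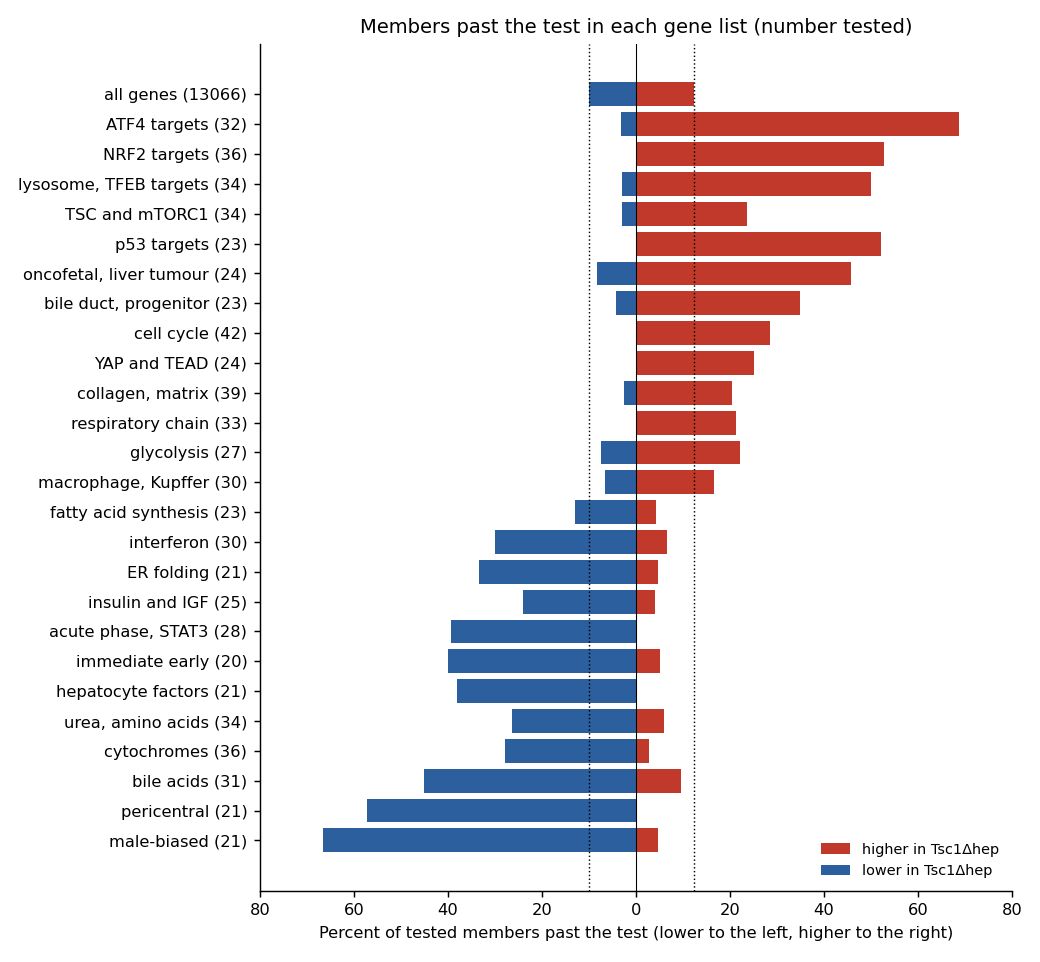
Percent of tested members of each gene list that were higher (red, right) or lower (blue, left) in Tsc1Δhep, with the number tested in brackets. Dotted lines mark the shares over all genes, 12.4% higher and 10% lower. ATF4 (22 of 32), NRF2 (19 of 36), p53 (12 of 23) and lysosome (17 of 34) members led on the right, and male-biased (14 of 21) and pericentral (12 of 21) members on the left.

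Genes of insulin and IGF signalling were mostly lower or not past the test. Of 25 tested, 6 were lower and 1 higher. Igf1, the growth factor that the liver releases under growth hormone, was at 927, 547 and 654 CPM in p62F/F and at 100, 105 and 125 CPM in Tsc1Δhep. All Tsc1Δhep values lay far below every control, and the log2 fold change was -2.68 ± 0.29 (adjusted p = 0.0024). Irs1, an adaptor of the insulin receptor that mTORC1 feedback acts on, was at 28.1, 34.2 and 35 CPM in the controls and at 8.74, 11.2 and 13.4 CPM in Tsc1Δhep (log2 -1.55, adjusted p = 0.00618). Irs2 (-1.09), Akt2 (-1.23) and Pik3r1 (-2.09) were lower too, and each lost its call without p62F/F 1 and without p62F/F 3. Igfbp2 fell by 1.80. Ddit4, a stress-induced inhibitor of mTORC1, was the member that rose, by 1.86, and it lost its call without Tsc1Δhep 2, p62F/F 2 or p62F/F 3. The count lower was 6, 4 and 10 without Tsc1Δhep 1, 2 or 3 and 3, 4 and 3 without p62F/F 1, 2 or 3.

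Male-biased liver genes, which growth hormone pulses sustain in males through STAT5B, had the lowest median of the 49 gene lists described. Of 21 tested, 14 were lower, 13 of them as large changes, and 1 was higher. The median log2 was -6.21 by edgeR. It was -4.12 by limma on log2(CPM + 1) with the length and GC trends removed. That scale shrinks falls to near 0 CPM, so the gap between the 2 medians does not measure the trends. Of 13 female-biased genes tested, 1 was higher and 1 lower, with a median log2 of -1.19. Of 4 sex chromosome genes tested none passed the test, with a median log2 of -0.22. The sample titles do not give the sex of the mice, and a part of sex in the male-biased falls was not tested. Mup7, a major urinary protein that carries pheromones, was at 1170, 1660 and 1470 CPM in p62F/F and at 0.0836, 0.874 and 0.411 CPM in Tsc1Δhep (adjusted p = 0.000927). Mup3 was at 5530, 6850 and 5720 CPM in the controls and at 11.3, 213 and 87.9 CPM in Tsc1Δhep (log2 -5.86, adjusted p = 0.00962). Urinary protein genes are near-identical copies, so the split of reads among them is uncertain. Gm2083, a further gene model of this family, was at 274 to 746 CPM in the controls and at 0 in Tsc1Δhep, and it was also at 0.206 to 0.380 CPM in Tsc1/p62Δhep.

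The falls also took in male-biased genes outside that family. Hsd3b5, a steroid dehydrogenase, was at 67.0, 93.7 and 97.0 CPM in p62F/F and left 3 counts over the 3 Tsc1Δhep libraries, a ratio of 2410 with a counting interval of 825 to 11700. Slco1a1, an organic anion transporter, was at 147, 249 and 319 CPM in the controls and at 0.293, 2.17 and 1.65 CPM in Tsc1Δhep (log2 -7.42 ± 0.75, adjusted p = 0.00195). Elovl3, a fatty acid elongase, was at 210, 121 and 214 CPM in the controls and at 2.05, 0.371 and 0.960 CPM in Tsc1Δhep (log2 -7.36 ± 0.68, adjusted p = 0.00157). Stat5b fell by 1.02 (adjusted p = 0.0123), a call lost without p62F/F 1, p62F/F 3 or Tsc1Δhep 2. With single libraries left out, between 11 and 16 members of the male-biased list were lower.

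Genes of the hepatocytes around the central vein, which WNT and beta-catenin sustain, were often lower. Of 21 tested, 12 fell, all as large changes, and none rose, with a median log2 of -2.89. Cyp1a2, a cytochrome that oxidises aromatic amines and caffeine, was at 531, 440 and 385 CPM in p62F/F and at 11.5, 27.8 and 27.2 CPM in Tsc1Δhep (log2 -4.35 ± 0.41, adjusted p = 0.00166). Glul, glutamine synthetase, was at 1670, 1790 and 1340 CPM in the controls and at 129, 271 and 469 CPM in Tsc1Δhep (log2 -2.47, adjusted p = 0.0132). Oat, ornithine aminotransferase, was at 754, 559 and 579 CPM in the controls and at 4.47, 23.4 and 51.9 CPM in Tsc1Δhep (log2 -4.57, adjusted p = 0.0106). For Glul and Oat the order Tsc1Δhep 1, 2, 3 ran from lowest to highest, and both calls were lost without Tsc1Δhep 2.

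Receptors and WNT readouts of this zone were also lower. Nr1i3, which encodes the xenobiotic receptor CAR, was at 56.7, 193 and 50 CPM in p62F/F and at 1.09, 3.55 and 2.93 CPM in Tsc1Δhep (log2 -5.29 ± 0.72, adjusted p = 0.00486). Ahr, the aryl hydrocarbon receptor that induces Cyp1a2, fell by 2.94 (adjusted p = 0.00395). Notum, a secreted WNT inhibitor, fell by 2.28, and Lgr5, a receptor for R-spondins, was at 6.79 to 11.2 CPM in the controls and at 0 to 0.686 CPM in Tsc1Δhep. Axin2, a standard WNT target, was at 10, 8.72 and 9.71 CPM in the controls and at 0.0836, 1.17 and 2.61 CPM in Tsc1Δhep (log2 -2.89, adjusted p = 0.0461). The Axin2 call was lost without Tsc1Δhep 2 or any 1 control, and that of Lgr5 without Tsc1Δhep 2 or p62F/F 1. Pericentral members lower numbered 16, 5 and 15 without Tsc1Δhep 1, 2 or 3 and 6, 7 and 7 without p62F/F 1, 2 or 3.

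Drug-metabolising cytochromes fell in part. Of 36 tested, 10 were lower and 1 higher, with a median log2 of -1.10. Cyp2c67 was at 167, 219 and 158 CPM in p62F/F and at 7.11, 6.09 and 6.49 CPM in Tsc1Δhep (log2 -4.78 ± 0.25, adjusted p = 0.000371), the tightest of these differences. Cyp2c54 and Cyp2c50 fell by 6.10 and 5.6, and Cyp2d40 by 2.96. Cyp2c genes are close paralogs, so their separate values are uncertain. Cyp2a5, which is known to be inducible by NRF2, was the member that rose, from 140, 490 and 206 CPM to 3120, 1800 and 1410 CPM (log2 2.92, adjusted p = 0.0133, lost without p62F/F 3). The count lower was 15, 9 and 12 without Tsc1Δhep 1, 2 or 3 and 8, 8 and 7 without p62F/F 1, 2 or 3.

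Bile acid synthesis and transport genes were mostly lower or not past the test. Of 31 tested, 14 were lower and 3 higher. Slc10a1, the sodium-dependent bile acid importer of hepatocytes, was at 359, 410 and 269 CPM in p62F/F and at 72.1, 30.3 and 44.4 CPM in Tsc1Δhep (log2 -2.82 ± 0.38, adjusted p = 0.00464). Cyp7b1, of the alternative synthesis route, fell by 2.49, and Fgfr4, the receptor through which FGF15 restrains synthesis, by 2.01. The canalicular export pump Abcb11 fell by 1.80, with its call lost without p62F/F 3. The rises were Abcc4 (described above), Abcb1a at 2.02 and Cyp39a1 at 2.42. The count lower was 14, 8 and 14 without Tsc1Δhep 1, 2 or 3 and 6, 6 and 4 without p62F/F 1, 2 or 3.

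Amino acid breakdown and other hepatocyte functions were lower in part. Of 34 genes of the urea cycle and amino acid metabolism, 9 were lower and 2 higher. Bhmt, which remethylates homocysteine, was at 3490, 3230 and 2610 CPM in p62F/F and at 221, 397 and 591 CPM in Tsc1Δhep (log2 -2.95, adjusted p = 0.00526). Cbs, at the start of transsulfuration, fell by 2.50, and Agxt, which removes glyoxylate, by 2.64. Tdo2 (1.16) and Otc (0.73) were the members higher, and both lost their calls without Tsc1Δhep 2 or any 1 control. Hepatocyte transcription factors had 8 of 21 lower and none higher. Besides Nr1i3 and Ahr these were Cebpb, Esr1, Foxa1, Onecut1, Onecut2 and Stat5b, and each of the 6 lost its call without p62F/F 1 and without p62F/F 3. The counts lower in both lists changed with the library left out, as did those over all genes. For amino acids 7, 3 and 14 were lower without Tsc1Δhep 1, 2 or 3 and 4, 6 and 4 without p62F/F 1, 2 or 3. For factors the counts were 8, 4 and 14 and then 2, 4 and 2. Over all genes they were 1312, 484 and 2679 and then 405, 510 and 338.

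Secreted serpins fell deeply within an otherwise little-called group. Of 22 hepatocyte secreted proteins, 4 were lower. Serpina3k, a protease inhibitor, was at 11400, 5330 and 7120 CPM in p62F/F and at 200, 313 and 161 CPM in Tsc1Δhep (log2 -5.15 ± 0.47, adjusted p = 0.00157). Serpina1a fell by 1.87, and both have close paralogs. The summed level of the 22 genes was 174000 to 203000 CPM in p62F/F and 88800 to 134000 CPM in Tsc1Δhep. In bulk tissue fewer cells of a type and less RNA per cell cannot be told apart. Secreted members lower were 5, 2 and 4 without Tsc1Δhep 1, 2 or 3 and 2, 4 and 2 without p62F/F 1, 2 or 3.

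**Figure D4:**
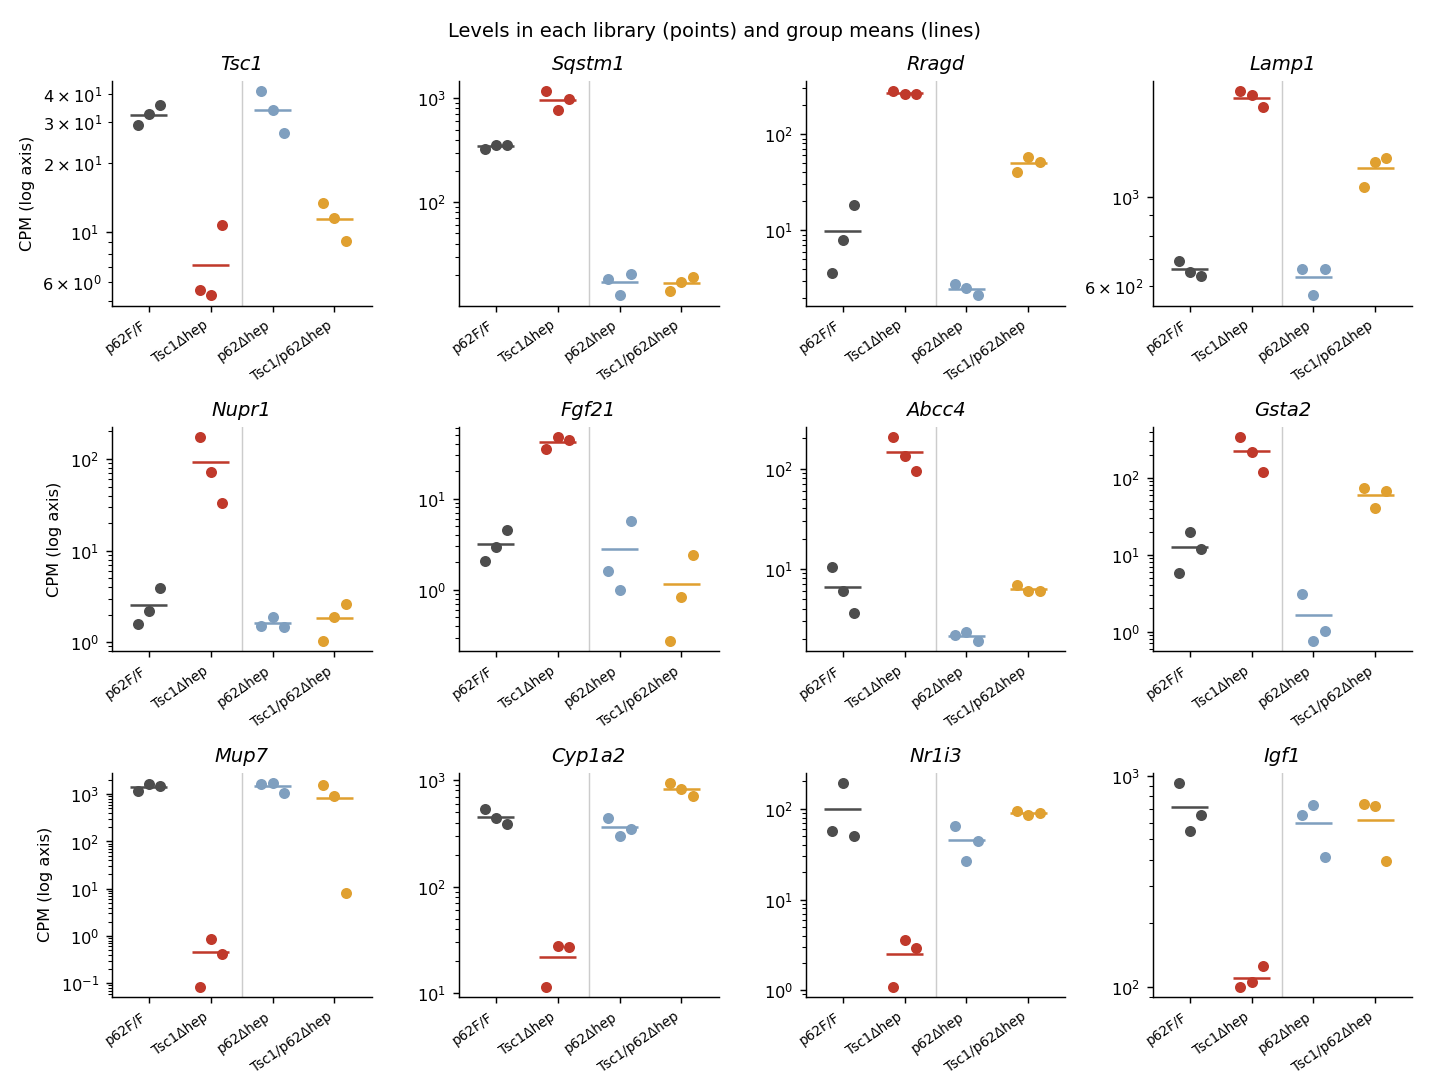
CPM on a log axis for 12 genes in each library (points) with group means (lines), with the Tsc1Δhep and p62F/F groups to the left of the grey line. Rragd and Nupr1 stood above all controls in every Tsc1Δhep library, and Mup7, Cyp1a2, Nr1i3 and Igf1 stood below.

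Acute phase genes, which IL-6 and STAT3 induce, were lower in 11 of 28 and higher in none. The controls themselves differed widely: Saa2, serum amyloid A, was at 26900, 136 and 3840 CPM in p62F/F and at 21.1, 90.4 and 12.5 CPM in Tsc1Δhep. Its call (log2 -7.96, adjusted p = 0.0278) was lost without p62F/F 1 or 3 or Tsc1Δhep 1 or 2. Lrg1, a leucine-rich plasma protein, was at 2410, 643 and 1410 CPM in the controls and at 177, 141 and 146 CPM in Tsc1Δhep (log2 -3.26 ± 0.49, adjusted p = 0.00643) and held its call without each library. Of the same list, 9, 3 and 12 were lower without Tsc1Δhep 1, 2 or 3 and 3, 15 and 3 without p62F/F 1, 2 or 3.

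Interferon-stimulated genes divided: 9 of 30 were lower and 2 higher. Xaf1 was at 36.8, 35.6 and 39.7 CPM in p62F/F and at 4.97, 5.35 and 4.71 CPM in Tsc1Δhep (log2 -2.90 ± 0.19, adjusted p = 0.000858), whereas Usp18, which removes ISG15, rose by 2.17. The factor Irf7 fell by 1.45. Genes of ER folding and degradation were lower in 7 of 21 and higher in 1, led by Syvn1, a ubiquitin ligase of ER-associated degradation (log2 -1.66, lost without Tsc1Δhep 2, p62F/F 1 or p62F/F 3). Immediate early genes were lower in 8 of 20, such as Egr1 (-3.39, lost without p62F/F 2 or 3) and Zfp36 (-1.75), and Klf6 was higher (1.60, lost without Tsc1Δhep 1, Tsc1Δhep 2 or any 1 control). With libraries left out, the interferon count lower was 9, 7, 12, 6, 5 and 5, the ER count 7, 2, 8, 1, 6 and 0 and the immediate early count 6, 4, 8, 2, 5 and 1, in the order Tsc1Δhep 1 to 3 and p62F/F 1 to 3.

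Markers of fetal liver and liver tumours were higher in 11 of 24 and lower in 2. Tff3, a secreted mucosal peptide, was at 13.9, 12.4 and 36.3 CPM in p62F/F and at 851, 793 and 251 CPM in Tsc1Δhep (log2 4.92 ± 0.67, adjusted p = 0.00493). Igf2bp3, an RNA-binding protein of fetal tissue and tumours, was at 0.113, 0.137 and 1.82 CPM in the controls and at 23.0, 15.7 and 18.8 CPM in Tsc1Δhep (log2 4.81, adjusted p = 0.013). Cd44, a hyaluronan receptor found on hepatocellular carcinoma progenitors, was at 16.8, 16.7 and 20.8 CPM in the controls and at 69.9, 69.5 and 54.0 CPM in Tsc1Δhep (log2 1.83 ± 0.21, adjusted p = 0.00299). The classical markers Afp and Gpc3 did not pass the test: Afp was at 1.47, 43.7 and 22 CPM in the controls and at 32.8, 40 and 7.82 CPM in Tsc1Δhep, with full overlap. Whether a piece held tumour cannot be read from the labels. The oncofetal count higher was 10, 8 and 14 without Tsc1Δhep 1, 2 or 3 and 7 without any 1 control.

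Bile duct and progenitor markers were higher in 8 of 23 and lower in 1. Spp1, osteopontin, was at 431, 162 and 440 CPM in p62F/F and at 5000, 2160 and 705 CPM in Tsc1Δhep (log2 2.93, adjusted p = 0.0307), with its call lost without Tsc1Δhep 2 or any 1 control. Spp1 is also on the macrophage list, so its rise is counted in both lists. Krt19, a keratin of duct cells, was at 0.386 to 0.789 CPM in the controls and at 13.1, 1.17 and 2.88 CPM in Tsc1Δhep (adjusted p = 0.0456), and the call was lost without Tsc1Δhep 1 or any 1 control. The summed level of the list, in which Spp1 has a large part, was 908 to 1490 CPM in p62F/F and 6890, 3790 and 2030 CPM in Tsc1Δhep. Markers higher were 4, 6 and 8 without Tsc1Δhep 1, 2 or 3 and 3, 1 and 1 without p62F/F 1, 2 or 3.

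p53 targets were higher in 12 of 23 and lower in none. Eda2r, a receptor of the TNF family, was at 3.21, 5.11 and 5.02 CPM in p62F/F and at 29.1, 48.5 and 23.3 CPM in Tsc1Δhep (log2 2.92 ± 0.35, adjusted p = 0.0034). Ddit4l rose by 3.28, and Ccng1 rose by 1.67 with its call lost without p62F/F 1 or 3. Cell cycle genes were higher in 12 of 42 and lower in none. Ccne1, cyclin E1, which drives entry into S phase, was at 1.52, 1.37 and 2.65 CPM in the controls and at 13.1, 18.5 and 8.91 CPM in Tsc1Δhep (log2 2.87 ± 0.41, adjusted p = 0.00552). Mki67 and Top2a, markers of dividing cells, did not pass the test (log2 0.10 and 0.89). In the order Tsc1Δhep 1 to 3 and p62F/F 1 to 3, leaving out a library gave 12, 8, 15, 3, 6 and 4 p53 targets and 11, 3, 20, 2, 2 and 6 cell cycle genes higher.

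YAP and TEAD genes were higher in 6 of 24. Tgfb2, a TGF-beta ligand, was at 0.169, 1.37 and 1.05 CPM in p62F/F and at 14.6, 27.6 and 19.6 CPM in Tsc1Δhep (log2 4.55 ± 0.63, adjusted p = 0.00507), and Ptpn14 rose by 3.13. Collagen and matrix genes were higher in 8 of 39 and lower in 1. Loxl2, which crosslinks collagen, was at 2.42, 4.97 and 3.48 CPM in the controls and at 27.0, 44.1 and 38.5 CPM in Tsc1Δhep (log2 3.33 ± 0.34, adjusted p = 0.00201). Col4a1 and Col4a2, chains of basement membrane collagen, rose by 1.65 and 1.64, calls lost without Tsc1Δhep 2 or any 1 control. Col1a1, the fibrillar collagen of scars, did not pass the test (4.96 to 18 CPM and 8.74 to 40.9 CPM). None of 18 stellate cell markers passed the test by edgeR, and with DESeq2 2 were higher and 2 lower. Without Tsc1Δhep 3, 6 of them were lower, and without Tsc1Δhep 1, 2 were higher. In the same order of libraries left out, YAP genes higher were 9, 5, 8, 4, 2 and 3 and matrix genes 11, 3, 10, 1, 2 and 2.

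Macrophage markers did not move as 1 group. Of 30 tested, 5 were higher and 2 lower, close to the shares over all genes (12.4% higher and 10% lower). Cybb, the phagocyte NADPH oxidase subunit, was at 37.2, 26.7 and 45.3 CPM in p62F/F and at 109, 231 and 154 CPM in Tsc1Δhep (log2 2.17 ± 0.34, adjusted p = 0.00713). Clec4f, a defining marker of resident Kupffer cells, was at 119, 118 and 114 CPM in the controls and at 0.0418, 19.9 and 39.8 CPM in Tsc1Δhep. The groups did not overlap, which held for 46.2% of all genes tested, and the adjusted p was 0.175. Cd5l, made by the same cells, was at 129 to 167 CPM in the controls and at 0.209, 24.3 and 53.1 CPM in Tsc1Δhep (adjusted p = 0.17). Endothelial markers summed to 318 to 455 CPM in p62F/F and to 97.8, 232 and 426 CPM in Tsc1Δhep, and 1 of 20 was higher and 1 lower. Macrophage markers higher numbered 5, 1 and 11 without Tsc1Δhep 1, 2 or 3 and 1 without any 1 control. The part of these other cells in the differences above was not tested.

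Energy metabolism changed in single steps. Of 27 glycolysis genes, 6 were higher and 2 lower. Pfkp, the platelet type of phosphofructokinase that is scarce in normal hepatocytes, was at 2.59, 6.25 and 5.68 CPM in p62F/F and at 77.1, 59.7 and 92.8 CPM in Tsc1Δhep (log2 3.98 ± 0.38, adjusted p = 0.00184). Aldoa, the muscle type of aldolase, rose by 1.69. Pck2, the mitochondrial PEP carboxykinase and a known ATF4 target, rose by 2.64, whereas Pygl, liver glycogen phosphorylase, fell by 1.54. Among fatty acid synthesis genes 3 of 23 were lower and 1 higher, beside 10% lower and 12.4% higher over all genes. The count lower was thus close to the share of all genes. The count lower was 8 without Tsc1Δhep 3 and 1 without Tsc1Δhep 2 or any 1 control. It was 7 by limma with the length and GC trends removed and 5 by DESeq2 without that removal. Pnpla3, a lipase under SREBP-1c, was at 2.88, 10.6 and 11.3 CPM in the controls and at 0.0836, 0.371 and 0.183 CPM in Tsc1Δhep (log2 -5.18 ± 0.74, adjusted p = 0.00554). Srebf1 fell by 1.54 (adjusted p = 0.0426), a call lost in 6 of the alternative fits. Respiratory chain genes were higher in 7 of 33. Without Tsc1Δhep 3 this count was 24, and without Tsc1Δhep 2 or any 1 control it was 0. With the length and GC trends removed, limma on log2(CPM + 1) called 15 of 33 higher and 1 lower, with a median log2 of 0.54. The edgeR median was 0.80, and DESeq2 without that removal called 17 higher. For glycolysis, the count higher was 5, 4 and 9 without Tsc1Δhep 1, 2 or 3 and 2 without any 1 control.

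Genes known to vary between inbred mouse strains were read because all groups carry the same background label. Of 6 tested, 3 were lower in Tsc1Δhep, all as large changes, and 1 was higher. Ifi202b, an interferon-inducible gene, was at 2.42, 3.01 and 3.64 CPM in p62F/F and at 0 in all 9 other libraries, which made it at least 84.4-fold lower in Tsc1Δhep. Glo1, a glyoxalase whose copy number varies between strains, was at 625, 607 and 563 CPM in p62F/F and at 95.6, 81.7 and 77.7 CPM in Tsc1Δhep (log2 -2.81, adjusted p = 0.00124). It was at 466 to 720 CPM in p62Δhep and at 189 to 267 CPM in Tsc1/p62Δhep. Nnt, a mitochondrial transhydrogenase that C57BL/6J mice carry with a deletion, was the member that rose, by 1.08, and its call was lost without Tsc1Δhep 2 or any 1 control. The part of strain differences in the results was not tested.

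The Tsc1 difference was then set beside the one measured without p62, in Tsc1/p62Δhep against p62Δhep, where both groups carried Cre. In that comparison 2153 of 12249 genes were higher (17.6%) and 2460 lower (20.1%). The test of the difference between the 2 differences used all 12 libraries, the same Tsc1Δhep and p62F/F libraries among them. It called 1233 of 13231 genes as more positive with p62 present (9.32%) and 894 as more negative (6.76%). Without Tsc1Δhep 3 these counts were 2551 and 2401. They fell to between 676 and 817 and between 465 and 591 when p62F/F 1 or 2, p62Δhep 2 or 3, or Tsc1/p62Δhep 1 or 2 was left out. In the comparison without p62, leaving out p62Δhep 3 or Tsc1/p62Δhep 2 left 1413 and 1378 genes higher. A factor that changes a gene equally in both groups of a table cancels in the difference of differences, but Cre does not, since only p62F/F lacked it. Among the 671 large rises, 388 were tested without p62, where 136 were called higher and 44 lower. Among the 405 large falls, 376 were tested there, and 191 were called lower and 28 higher.

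Counts by list were set side by side. The shares over all genes were 17.6% higher and 20.1% lower without p62, and 9.32% more positive and 6.76% more negative with it. Of lysosome genes, 17 of 34 were higher in either comparison, with a median log2 of 0.98 with p62 and 0.45 without it. In this list 5 of 34 were more positive with p62. The largest of these 5 differences was that of Gpnmb, a glycoprotein also on the macrophage list, at 229, 2.52 and 19.5 CPM in Tsc1Δhep (difference 8.71, adjusted p = 0.023), which was not called in Tsc1Δhep against p62F/F. Rragd, at 2.46 CPM in p62Δhep and 49.7 CPM in Tsc1/p62Δhep on average, rose by 4.34 there and by 4.76 here, and the 2 rises did not pass the test of their difference (0.42, adjusted p = 0.65). Of NRF2 targets 21 of 36 were higher without p62, and 8 were more positive with it. Gsta2 rose by 5.21 without p62 and by 4.16 with it. Of ATF4 targets 4 of 31 were higher and 6 lower without p62, neither above the share over all genes. With p62, 16 of 32 were more positive and none more negative. Nupr1, at 1.62 CPM in p62Δhep and 1.85 CPM in Tsc1/p62Δhep, had a log2 of 0.20 there against 5.19 here (difference 4.99, adjusted p = 0.0032).

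Hepatocyte lists that fell with p62 present did not all fall without it. Over all genes, 17.6% were higher and 20.1% lower without p62, and 9.32% were more positive and 6.76% more negative with it. Of male-biased genes 5 of 21 were lower without p62, close to the share over all genes, and 13 of 21 were more negative with it. Mup7 was at 1550, 897 and 8.04 CPM in Tsc1/p62Δhep, so library 3 of that group stood apart from the other two. Of pericentral genes 2 of 21 were lower and 6 higher without p62, and 8 were more negative with it. Cyp1a2 averaged 360 CPM in p62Δhep and 827 CPM in Tsc1/p62Δhep, and it rose by 1.20 there and fell by 4.35 here (difference -5.55, adjusted p = 0.000132). Of urea cycle and amino acid genes 22 of 34 were higher without p62, and 20 were more negative with it. Igf1 had a log2 of 0.05 without p62 (599 and 617 CPM on average) against -2.68 with it (adjusted p of the difference 0.0029). Of acute phase genes 11 of 28 were lower with p62 and 24 of 28 without it. In this list 2 were more negative and 2 more positive with p62, close to the shares over all genes. Macrophage markers went apart, with 27 of 29 lower without p62 and 22 of 30 more positive with it.

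**Figure D5:**
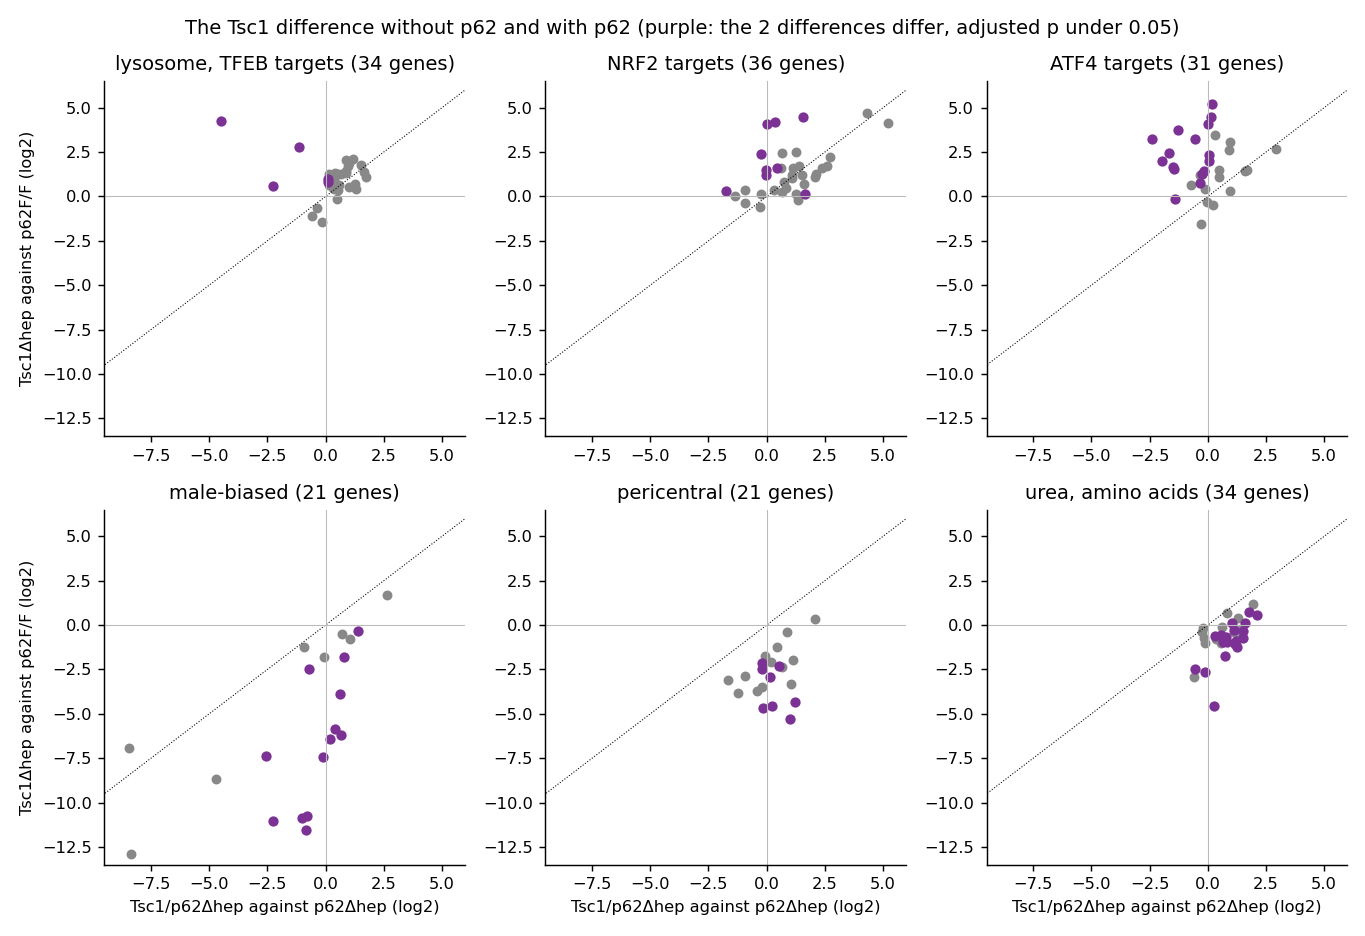
Log2 fold change of Tsc1Δhep against p62F/F (vertical) by that of Tsc1/p62Δhep against p62Δhep (horizontal) for members of 6 lists tested in both, with the dotted line of equal change. Purple members passed the test of the difference between the 2; most purple ATF4 members lay above 0 on the vertical axis and near or below 0 on the horizontal one, and most lysosome members lay near the line.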

How the data were processed

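Liver RNA was poly(A)-selected and sequenced from directional libraries, single-end at 75 nt or paired-end, per the labels' protocols, which do not say which library had which. The authors deposited raw read counts per gene symbol in 1 table per pair of groups: p62F/F with p62Δhep, and Tsc1Δhep with Tsc1/p62Δhep. Per the submitters' processing notes the build was hg19, although the symbols are mouse, and for aligner, counting program and use of strand nothing is given in the sources used here. Of 23420 rows, 27 have date-like names and were kept, unnamed in the text. Libraries were grouped by their labels. Within groups they differed by 96.3 to 325 chi-square units per gene, so none was a copy.

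Counts of the 6 libraries were filtered (edgeR filterByExpr, minimum count 10, minimum total 15), scaled by TMM and tested with edgeR 4.0.16 (R 4.3.3) by the quasi-likelihood test, with p-values adjusted after Benjamini-Hochberg and a threshold of 0.05. Large changes were also over 4-fold with no overlap. CPM come from 1 TMM scaling of all 12 libraries and fold changes from the fit of the 6. The test of the difference with and without p62 used all 12. Genes were named by a rule: Tsc1, Tsc2, Sqstm1, Alb, Nfe2l2, Keap1 and Myc, the 10 largest rises and falls with a mean of 50 counts, the 4 smallest p values per list, and the 6 smallest for the p62 difference. Other genes named were chosen after their values were seen. The members and lists were chosen with earlier results of these data known. Alternatives were DESeq2 1.42.0, limma 3.58.1 on log2(CPM + 1), the same with length and GC trends removed (mgcv 1.9.3), other scaling and filters, a replicate block and leaving out libraries. The edgeR fit was tested on simulated data. Counting intervals (95%) and the floor of 3 counts cover counting error only. Sequences and promoter positions are RefSeq's, GRCm38.p6. 1 list member is not reported here.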

Additional observations from a re-analysis of the deposited data

Results flagged for a closer look

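The Tsc1 difference was tested for a change with p62 in a single fit of the 12 libraries, by edgeR's quasi-likelihood test. It was more positive with p62 present in 1233 genes and more negative in 894. Among the genes with large changes, the following differed most by p value or were among the largest rises and falls, each given as the log2 difference between the Tsc1 effect with p62 and without it. Positive values were found for Tmem116 (11.69), Ncoa7 (4.40), Serpinb6a (3.79) and Abr (3.55). Negative values were found for the urinary protein genes Mup7 (-10.65), Mup1 (-9.96) and Mup14 (-9.84), the related gene model Gm2083 (-5.66), the steroid dehydrogenase Hsd3b5 (-8.75), Dct (-7.33), the cytochromes Cyp1a2 (-5.55) and Cyp2c67 (-4.39), and the mitochondrial carrier Slc25a21 (-3.83). Those of Tmem116, Gm2083, Mup7, Mup1, Mup14, Hsd3b5 and Dct rest on groups near 0 counts, so their fitted size depends on the prior count and is no bound. Cre was absent in p62F/F alone, and its part in these differences cannot be told apart from that of p62.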

How the results depend on the processing

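As single libraries were left out, higher genes ranged from 484 to 2930, lower genes from 338 to 2679, large rises from 378 to 902 and large falls from 223 to 691. The p62 difference ranged from 676 to 2551 more positive and 465 to 2401 more negative, and the comparison without p62 from 1378 to 2180 higher and 1655 to 2319 lower. With all 12 libraries in 1 fit, 2661 genes were higher and 2347 lower. A test against a 2-fold change (glmTreat) called 449 and 248. limma on log2(CPM + 1) gave 360 large rises and 241 large falls. With length and GC trends removed it gave 350 and 235, and it called 2026 genes lower and 1377 more negative with p62. A fold over 8 left 349 large rises and 185 large falls. Tsc2, which did not pass the test, ranged from -0.10, without Tsc1Δhep 3, to 0.59 as libraries were left out. Of 168 named genes called, 92 stayed past the threshold whichever library was left out and 76 did not. DESeq2 kept 167 of these calls and gave no adjusted p for Guca2a, and its size factors in edgeR kept all 168.

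The groups share replicate numbers, but same-numbered libraries did not deviate together (r = 0.082, -0.032 and -0.053), so the numbers give no pairing. With the replicate block, 1108 genes were higher, 961 lower, 589 large rises and 387 large falls. The blocked p62 difference called 924 and 656 genes, and the blocked comparison without p62 2157 and 2397. Of the named genes called, 16 lost their call under the block. Depth ranged from 17492176 to 33377247 counts, and its part in the calls was not tested. With 3 libraries per group, with table and Cre going with genotype, and with diet, age and animals not given per library, a difference cannot be assigned to Tsc1 alone. The correction for length in the p62 difference was chosen after seeing the data.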
